A study of Mus musculus with 8 samples.

Results

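Follicular helper T (Tfh) cells that carried a Th17 fate reporter were compared with Tfh cells that did not, and the size of that difference was compared between Peyer's patch and spleen. All 8 of the 8 libraries of the series entered, since the comparison needs all 4 groups. Each gene has a sort effect in each tissue, the log2 fold change of ZsGreen+ over ZsGreen− Tfh cells, and the value described here is the patch sort effect minus the spleen sort effect (the tissue difference). A tissue difference of 0 means an equal fold change in both tissues. A negative one means that the patch effect was lower than the spleen effect, and a positive one the reverse.

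Every group came from K/BxN mice, which develop spontaneous autoimmune arthritis, carrying a fate-mapping reporter that keeps ZsGreen fluorescence in cells with a Th17 past. Enriched CD4+ T cells were sorted as TCRβ+, CD25−, CXCR5+ and PD-1+ cells, either ZsGreen− or ZsGreen+, from Peyer's patch and from spleen, which gives 4 groups of 2 libraries. In each group, the first replicate is from experiment 1, and the other from experiment 2. The sources used here do not give the driver of the reporter, the age of the mice or any pooling of animals. Whether replicates are separate animals is not stated either, so p-values measure the spread between these libraries, which may be technical in part.

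Tfh cells sit in B cell follicles, where CXCR5 brings them, and help germinal centre B cells under the control of Bcl6. Th17 cells respond to IL-1 and IL-23 and make IL-17A and IL-17F, and their home ground is the gut. Peyer's patches are the follicular tissue of the small intestine, whose germinal centres are driven by gut microbes, whereas the spleen samples antigen from blood. A gene that marks reporter-positive cells in 1 tissue may therefore not mark them in the other, and the tissue difference measures this gene by gene.

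The libraries held 9950042 to 15318207 estimated counts over the 16735 genes present in the tables of both experiments. T cell and Tfh genes were present in all 8, with Cd3e at 354 to 2171 CPM (counts scaled to library size), Cd4 at 673 to 1356, Cxcr5 at 105 to 802 and Bcl6 at 16.6 to 244. Defining genes of other cells reached at most 4.33 CPM for Ms4a1, 10.3 for Cd8b1, 5.4 for Csf1r, 26.8 for Lyz2, 1.03 for Krt8 and 37.3 for Jchain. Immunoglobulin transcripts were higher, up to 714 CPM for Ighm, 244 for Igha and 101 for Igkc. Trdc, of the γδ T cell receptor, ranged from 2.7 to 89.4 CPM and was lower in ZsGreen+ than in ZsGreen− cells within each tissue and experiment. Some libraries stood apart. The 4 Y-linked genes had 0 counts in spleen ZsGreen− replicate 1 and 179 to 1482 in the others. In experiment 1 they had 179 and 0 counts in patch and spleen ZsGreen− cells, against 1010 and 1094 in ZsGreen+ cells. In experiment 2 they had 1065 and 397, against 1482 and 1227. The X-linked Xist had 15049 to 24703 counts in experiment 1 and 984 to 1948 in experiment 2. These counts thus differed between the sorts and between the experiments, and animal sex is not given. The immediate early gene list summed to 47356 CPM in spleen ZsGreen− and 24404 in spleen ZsGreen+ of experiment 2, against 2924 to 7267 in the other 6 libraries. The heat shock and stress list stood highest in the same 2 libraries, at 12465 and 7693 CPM, against 3392 to 5092. The part of sex and of these 2 lists in the results was not tested, but counts without each library are given below.

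The sort effect differed between tissues for 14 of 14418 genes tested (0.0971% of all genes) by edgeR's quasi-likelihood test, at a Benjamini-Hochberg adjusted p under 0.05. The tissue difference was negative for 10 of them (0.0694%) and positive for 4 (0.0277%). Across all genes the median was 0.01 and 48.5% of the values were negative. DESeq2, run as an alternative, called 144 genes (0.999%), 59 positive (0.409%) and 85 negative (0.59%), which included all 14. At an unadjusted p under 0.05 edgeR counted 1223 genes (8.48%). The sort effect itself was called for 1243 genes in spleen (8.62%), of which 653 rose (4.53%) and 590 fell (4.09%). In Peyer's patch it was called for 63 (0.437%), of which 41 rose (0.284%) and 22 fell (0.153%). Those 2 totals are no test of the difference.

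All 14 genes had a called sort effect in spleen, whereas 2, Il17re and Acsbg1, also had one in Peyer's patch. By effect size, 8 genes (0.0555% of all genes) moved in spleen only, meaning a called spleen effect with a patch effect that was not called and under 1.5-fold: Adgrg5, Rbpj, Scpep1, Slc2a3, Itm2a, Tgfbr3, Itgb1 and Jdp2. A further 5 (0.0347%) had effects of at least 1.5-fold of 1 sign in both tissues, larger in spleen: Il17re, Acsbg1, Fes, Furin and Il1r1. Ccdc102a (0.00694%) had opposite signs, each at least 1.5-fold. No gene with a called tissue difference was marked in the patch only, and DESeq2 placed 1 there. No gene had opposite sort effects that were called in both tissues, with either tool. In both experiments taken alone, all 14 had the same sign of the tissue difference, as did 58.6% of all genes. The 14 were called from both experiments together, which favours genes on which they agree, so this is no separate support.

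**Figure D1:**
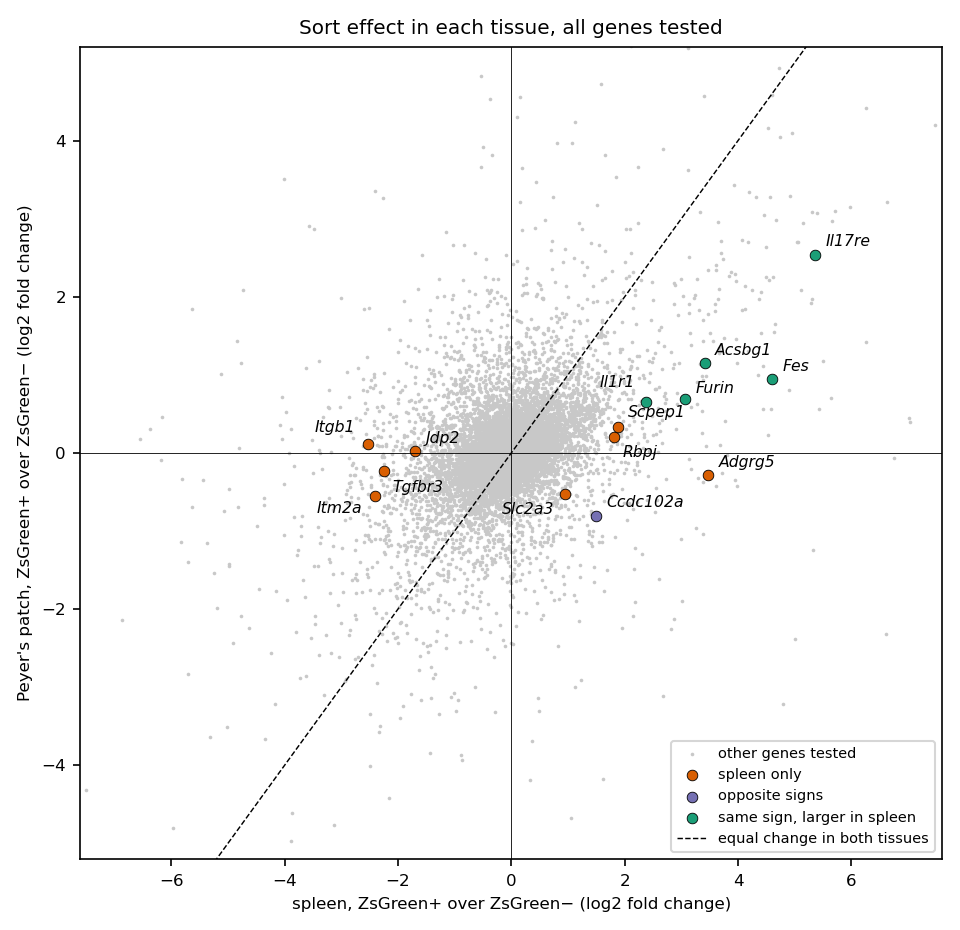
Each point is 1 of the genes tested, with its fitted log2 fold change of ZsGreen+ over ZsGreen− in spleen (horizontal axis) and in Peyer's patch (vertical axis). The 14 genes with a called tissue difference are coloured by class and lie off the dashed line of equal change, nearer to the horizontal axis than to the vertical one, with Ccdc102a alone in the class of opposite signs at −0.80 in the patch and 1.50 in spleen, while 26 genes fall outside the axes.

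The group that set each of these genes apart was always a spleen group, when each group's log2 CPM was compared with the mean of the other 3 groups within an experiment. The group apart is the one farthest from that mean, which need not be the only highest or lowest one. Spleen ZsGreen+ cells stood apart on the high side for 7 genes (Acsbg1, Fes, Furin, Il17re, Rbpj, Scpep1, Slc2a3) and on the low side for 2 (Jdp2, Tgfbr3). Spleen ZsGreen− cells stood apart on the low side for 3 (Adgrg5, Ccdc102a, Il1r1) and on the high side for 2 (Itgb1, Itm2a). The same group stood apart in both experiments for all 14, which is not independent of how they were chosen. Patch ZsGreen+ and spleen ZsGreen+ cells differed from each other for 11 of the 14 genes, patch and spleen ZsGreen− cells for 5, and both pairs for 2 (adjusted p under 0.05 in the same model). The tissue difference that chose the 14 is also the difference between these comparisons. The share of all genes is not given for them, so the counts only describe the 14. In bulk samples, fewer cells of a type and less RNA per cell cannot be told apart. In the values that follow, the first number of each pair is replicate 1 and the second replicate 2.

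Adgrg5, an adhesion G protein-coupled receptor (chr8:95650322-95669909, plus strand, mm39), had the smallest adjusted p of all genes. Patch ZsGreen− cells had 22.2 and 27.9 CPM and patch ZsGreen+ cells 18.8 and 22.4. Spleen ZsGreen− cells had 3.05 and 1.99 CPM, and spleen ZsGreen+ cells had 31.2 and 29.1. Spleen ZsGreen− libraries were thus the low ones, and the other 6 lay within a narrow range. The sort effect was 3.48 ± 0.25 (SE, log2; 11.2-fold) in spleen (adjusted p = 1.41e-05) and −0.28 in the patch (95% interval −0.73 to 0.18, adjusted p = 0.806). The tissue difference was −3.76 ± 0.33 (adjusted p = 0.00145), at −3.53 and −4.10 in the 2 experiments.

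Ccdc102a, a coiled-coil protein gene, lies beside Adgrg5 (chr8:95629497-95644727) on the minus strand, so the 2 genes start away from each other across 5595 bases. It had 25.2 and 23.2 CPM in patch ZsGreen− cells, 14.9 and 13.0 in patch ZsGreen+ cells, 4.92 and 3.99 in spleen ZsGreen− cells and 13.2 and 12.3 in spleen ZsGreen+ cells. ZsGreen+ cells were thus lower than ZsGreen− cells in the patch and higher in spleen, in both experiments. The spleen rise of 1.50 ± 0.22 (log2; 2.83-fold) was called (adjusted p = 0.00196). The patch value of −0.80 was not (95% interval −1.23 to −0.37, adjusted p = 0.175). Their difference was −2.29 ± 0.30 (log2, adjusted p = 0.0172), so the tissues differed, while a decrease in the patch did not pass on its own. ZsGreen+ cells of both tissues had like levels (patch over spleen log2 0.13, adjusted p = 0.729), and ZsGreen− cells differed by 2.43 (adjusted p = 9.79e-05).

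The promoters of this divergent pair are printed because both genes share the low spleen ZsGreen− level. Each run is the 250 bases before the RefSeq start (GRCm38.p6), 5′ to 3′ in the direction of the gene. The deposited gene positions are on another build, mm39.
Adgrg5, chr8:94923444-94923693, plus strand: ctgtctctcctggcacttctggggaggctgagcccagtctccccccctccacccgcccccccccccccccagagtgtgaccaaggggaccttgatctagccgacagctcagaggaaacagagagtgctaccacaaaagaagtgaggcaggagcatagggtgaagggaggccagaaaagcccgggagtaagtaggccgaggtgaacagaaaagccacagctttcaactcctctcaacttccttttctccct
Ccdc102a, chr8:94918099-94918348, minus strand: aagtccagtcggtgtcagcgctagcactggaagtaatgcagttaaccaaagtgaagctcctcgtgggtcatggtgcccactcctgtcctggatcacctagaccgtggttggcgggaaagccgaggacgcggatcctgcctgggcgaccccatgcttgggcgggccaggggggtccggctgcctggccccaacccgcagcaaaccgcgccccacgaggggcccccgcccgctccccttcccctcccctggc
Motifs were searched on both strands: AGGTCA, a half-site of nuclear receptors, TGANTCA of AP-1 and BATF, and the interferon-stimulated response element, searched as GAAA followed after any 2 bases by GAAA. Neither run holds any of them.

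Among cytokine receptors, Il17re, the subunit that pairs with Il17ra to bind IL-17C (chr6:113435445-113447720), was marked in both tissues. It had 2.61 and 2.66 CPM in patch ZsGreen− cells and 11.4 and 21.6 in patch ZsGreen+ cells. In spleen it went from 1.71 and 2.61 CPM to 78.6 and 93.4. The groups did not overlap in either tissue, and spleen ZsGreen+ cells stood far above the rest. It rose by 2.54 (log2; 5.83-fold, adjusted p = 0.000938) in the patch and by 5.36 ± 0.26 (40.9-fold, adjusted p = 1.71e-06) in spleen, a tissue difference of −2.81 ± 0.36 (adjusted p = 0.0172).

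Il1r1, the signalling receptor for IL-1 (chr1:40264240-40356418), had 172 and 106 CPM in patch ZsGreen− cells and 346 and 130 in patch ZsGreen+ cells. Spleen ZsGreen− cells had 59.0 and 35.1 CPM, and spleen ZsGreen+ cells 355 and 154. Spleen ZsGreen− libraries were the lowest within each experiment. The spleen rise was 2.37 ± 0.19 (log2; 5.17-fold, adjusted p = 3.29e-05), the patch value 0.66 (95% interval 0.27 to 1.05, adjusted p = 0.232) and their difference −1.71 ± 0.25 (adjusted p = 0.0338).

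Tgfbr3, betaglycan, a co-receptor that presents TGF-β (chr5:107254436-107437496), behaved the other way round. It had 63.2 and 16.1 CPM in patch ZsGreen− cells, 56.7 and 13.0 in patch ZsGreen+ cells, 41.0 and 9.35 in spleen ZsGreen− cells and 10.1 and 1.2 in spleen ZsGreen+ cells. Spleen ZsGreen+ cells were thus the lowest of the 4 groups in each experiment, although experiment 1 was higher throughout. It fell by 2.24 on the log2 scale in spleen (adjusted p = 0.000221), with −0.23 in the patch (95% interval −0.67 to 0.22, adjusted p = 0.848) and a difference of 2.02 ± 0.31 (adjusted p = 0.0338).

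Furin, the proprotein convertase that cleaves TGF-β and other precursors (chr7:80038333-80055185), and Fes, a cytoplasmic tyrosine kinase (chr7:80027504-80037695), are neighbours on the minus strand with 638 bases between them. Furin had 137 and 35 CPM in patch ZsGreen− cells, 195 and 66.3 in patch ZsGreen+ cells, 98.9 and 31.4 in spleen ZsGreen− cells and 671 and 322 in spleen ZsGreen+ cells. It rose in spleen by 3.07 ± 0.20 (log2; 8.41-fold, adjusted p = 1.10e-05), against 0.69 in the patch (adjusted p = 0.25), a difference of −2.38 ± 0.27 (adjusted p = 0.0155). Fes was much less abundant, at 2.34 and 0.554 CPM in patch ZsGreen− cells, 4.22 and 1.58 in patch ZsGreen+ cells, 1.44 and 1.07 in spleen ZsGreen− cells and 35.8 and 21.1 in spleen ZsGreen+ cells. Its lowest value rests on 5 counts. It rose in spleen by 4.60 ± 0.38 (log2; 24.3-fold, adjusted p = 3.29e-05), with 0.95 in the patch (adjusted p = 0.507) and a difference of −3.65 ± 0.53 (adjusted p = 0.0335). For both neighbours spleen ZsGreen+ libraries were the highest within their experiment.

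Acsbg1, an acyl-CoA synthetase of long-chain fatty acids (chr9:54512161-54569155), was the other gene marked in both tissues. It had 17.0 and 11.5 CPM in patch ZsGreen− cells and 33.2 and 31.1 in patch ZsGreen+ cells, then 10.3 and 11.5 in spleen ZsGreen− cells and 103 and 127 in spleen ZsGreen+ cells. The rise was 1.15 (log2; 2.22-fold, adjusted p = 0.0268) in the patch and 3.41 ± 0.21 (10.6-fold, adjusted p = 6.46e-06) in spleen. The ZsGreen− groups of the 2 tissues did not pass the test against each other (log2 0.42, adjusted p = 0.328), and the ZsGreen+ groups differed by −1.84, patch over spleen (adjusted p = 9.21e-05). The tissue difference was −2.26 ± 0.28 (adjusted p = 0.0172).

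Slc2a3, the glucose transporter GLUT3 (chr6:122704768-122778600), had 27.3 and 16.7 CPM in patch ZsGreen− cells, 19.2 and 11.5 in patch ZsGreen+ cells, 36.1 and 18.7 in spleen ZsGreen− cells and 68.1 and 36.8 in spleen ZsGreen+ cells. The order of the 4 groups was the same in both experiments, with patch ZsGreen+ lowest and spleen ZsGreen+ highest. It rose in spleen by 0.94 ± 0.16 (log2; 1.91-fold, adjusted p = 0.00367), with −0.52 in the patch (95% interval −0.88 to −0.17, adjusted p = 0.353) and a difference of −1.46 ± 0.23 (adjusted p = 0.0338).

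Scpep1, a serine carboxypeptidase (chr11:88814846-88846292), had 22.9 and 38.0 CPM in patch ZsGreen− cells, 24.1 and 57.8 in patch ZsGreen+ cells, 16.1 and 30.7 in spleen ZsGreen− cells and 51.9 and 129 in spleen ZsGreen+ cells. It rose in spleen by 1.88 ± 0.17 (log2; 3.69-fold, adjusted p = 7.20e-05), with 0.33 in the patch (adjusted p = 0.662) and a difference of −1.55 ± 0.24 (adjusted p = 0.0338). Its promoter is shown because, with that of Jdp2, it is 1 of 2 among the 17 RefSeq promoters matched to 12 of the 14 genes that hold AGGTCA, in capitals below.
Scpep1, chr11:88955443-88955692, minus strand, GRCm38.p6: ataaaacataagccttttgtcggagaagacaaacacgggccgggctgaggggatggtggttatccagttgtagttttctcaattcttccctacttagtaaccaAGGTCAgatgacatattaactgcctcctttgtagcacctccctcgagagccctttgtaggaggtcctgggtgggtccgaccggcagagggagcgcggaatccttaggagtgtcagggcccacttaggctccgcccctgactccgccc
The match lies 147 to 142 bases before the start. That share, 11.8%, stands beside 10.9% of the 12446 promoters of all tested genes that could be matched. TGANTCA was in 4.19% and the interferon element in 2.72% of all those promoters, and in none of the 17.

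Rbpj, the DNA-binding partner of Notch (chr5:53623494-53814705), had 35.4 and 11 CPM in patch ZsGreen− cells, 39.4 and 13.2 in patch ZsGreen+ cells, 40.4 and 14 in spleen ZsGreen− cells and 159 and 42.6 in spleen ZsGreen+ cells. Spleen ZsGreen+ was the group apart, and Rbpj rose in spleen by 1.82 ± 0.15 (log2; 3.52-fold, adjusted p = 4.31e-05), with 0.21 in the patch (95% interval −0.13 to 0.54, adjusted p = 0.806). The difference was −1.61 ± 0.22 (adjusted p = 0.0181). Jdp2, a repressor of AP-1 (chr12:85645801-85686653), had 26.3 and 38.3 CPM in patch ZsGreen− cells, 29.9 and 34.5 in patch ZsGreen+ cells, 16.3 and 24.5 in spleen ZsGreen− cells and 5.38 and 7.11 in spleen ZsGreen+ cells. It fell by 1.69 on the log2 scale in spleen (adjusted p = 0.000383), with 0.02 in the patch (95% interval −0.36 to 0.40, adjusted p = 0.989) and a difference of 1.71 ± 0.26 (adjusted p = 0.0338).

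Itm2a, a type II membrane protein of T cells (chrX:106440705-106446983), had 14.1 and 40.5 CPM in patch ZsGreen− cells, 9.33 and 28.8 in patch ZsGreen+ cells, 31.9 and 98.6 in spleen ZsGreen− cells and 5.11 and 21.2 in spleen ZsGreen+ cells. Spleen ZsGreen− was the highest and spleen ZsGreen+ the lowest group in each experiment. It fell by 2.40 on the log2 scale in spleen (adjusted p = 1.58e-05), with −0.55 in the patch (adjusted p = 0.353) and a difference of 1.86 ± 0.25 (adjusted p = 0.018). It is the 1 X-linked gene of the 14. Without the library that lacked Y-linked counts, its tissue difference was 1.80 (adjusted p = 0.0143).

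Itgb1, the integrin β1 chain that T cells use for adhesion to matrix (chr8:129412135-129459682), stood far higher in spleen ZsGreen− cells than in the other groups. Patch ZsGreen− cells had 53.0 and 27.3 CPM and patch ZsGreen+ cells 52.3 and 33.5. Spleen ZsGreen− cells had 892 and 1031 CPM, and spleen ZsGreen+ cells 216 and 136. All 4 spleen libraries lay above all 4 patch libraries. It fell by 2.52 on the log2 scale in spleen (5.74-fold, adjusted p = 0.000517), with 0.11 in the patch (95% interval −0.45 to 0.67, adjusted p = 0.954) and a difference of 2.63 ± 0.35 (adjusted p = 0.0338).

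**Figure D2:**
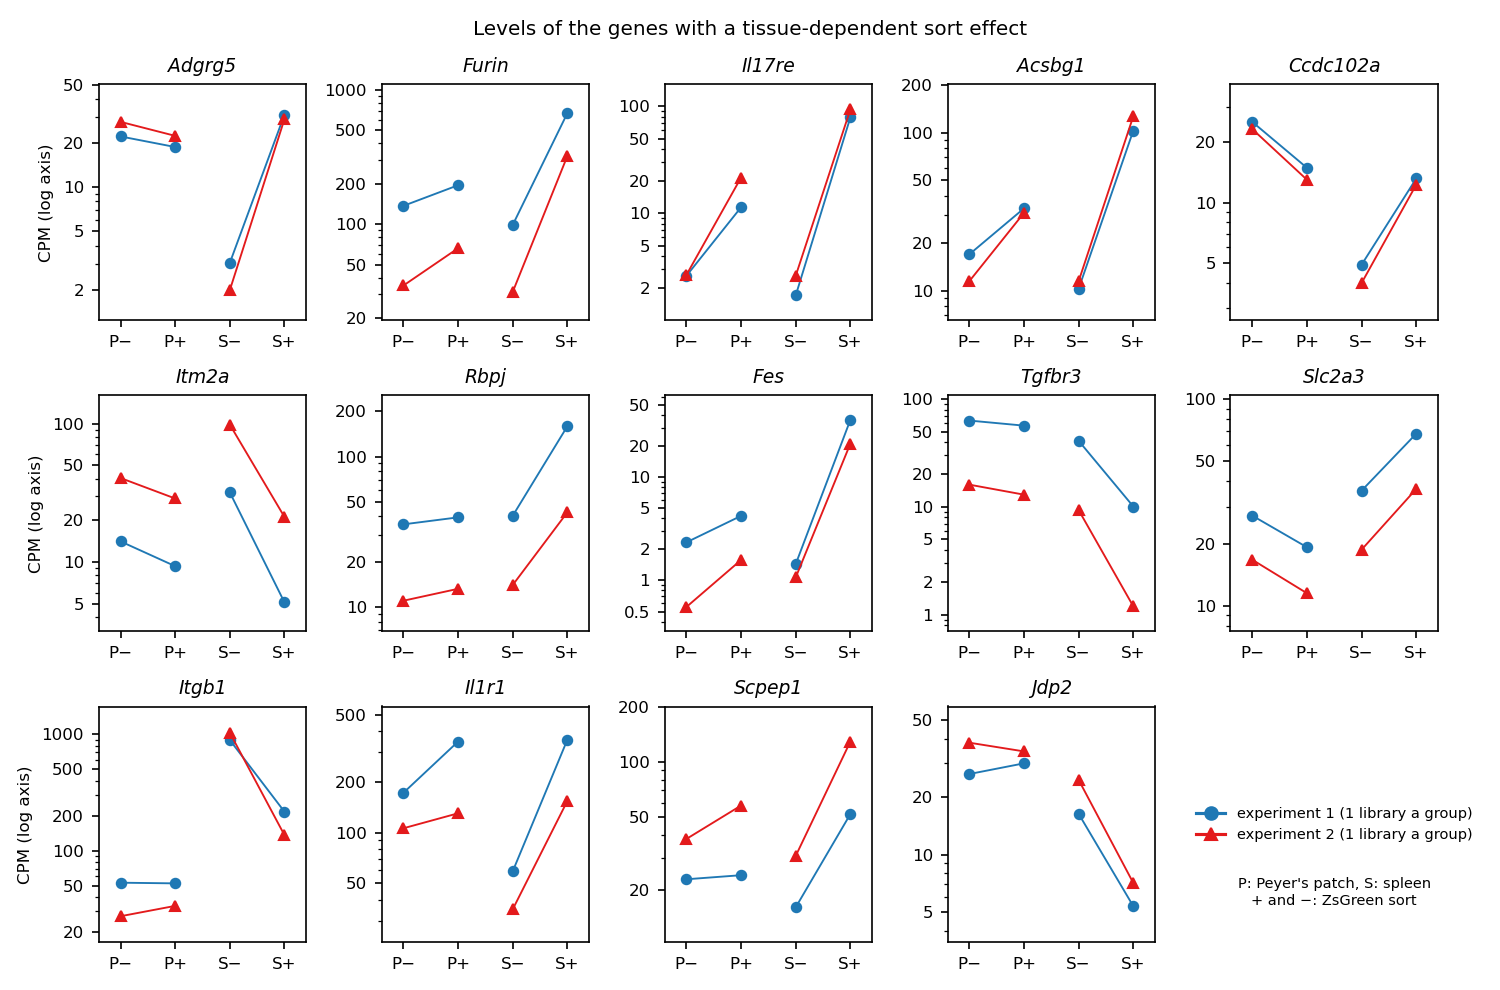
Each panel plots 1 of the 14 genes with a called tissue difference, in CPM on a log axis, for patch (P) and spleen (S) cells sorted as ZsGreen− or ZsGreen+, with 1 line per experiment. The spleen lines are steeper than the patch lines in every panel, as for Adgrg5, from 3.05 to 31.2 CPM in spleen and from 22.2 to 18.8 in the patch in experiment 1.

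The genes by which Th17 cells are usually known mostly had lower patch than spleen effects without passing the threshold one by one. Ccr6, the receptor for CCL20, had 9.96 and 72.3 CPM in patch ZsGreen− cells, 65.0 and 293 in patch ZsGreen+ cells, 8.18 and 35.4 in spleen ZsGreen− cells and 126 and 492 in spleen ZsGreen+ cells, with a tissue difference of −1.56 ± 0.27 (adjusted p = 0.0658). Within each experiment, spleen ZsGreen+ cells were highest and spleen ZsGreen− cells lowest. It rose in both tissues, by 2.31 (log2; 4.97-fold, adjusted p = 0.000613) in the patch and 3.88 (14.7-fold, adjusted p = 5.51e-06) in spleen, and DESeq2 called the difference (log2 −1.59).

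Of the cytokines, Il17f had 0.762 and 7.75 CPM in patch ZsGreen− cells, 5.06 and 66.8 in patch ZsGreen+ cells, 0.642 and 18.5 in spleen ZsGreen− cells and 81.8 and 606 in spleen ZsGreen+ cells. Its tissue difference was −2.68 ± 0.57 (adjusted p = 0.228), and it was called without spleen ZsGreen− replicate 1 (−2.27), spleen ZsGreen− replicate 2 (−3.84) or spleen ZsGreen+ replicate 2 (−3.25), and by DESeq2 (−2.87). Il17a was at 0 and 0.554, 0.562 and 11.7, 0.909 and 4.60, and 93.1 and 253 CPM in the same order of groups. Its difference of −1.84 had a 95% interval from −8.81 to 5.12 (adjusted p = 0.929), an interval that spans equal and very unequal effects. Il23r, a receptor subunit for IL-23, rose in both tissues (log2 3.29, adjusted p = 0.000526, in the patch and 4.57, adjusted p = 4.80e-06, in spleen), with a difference of −1.28 (adjusted p = 0.332). Csf2, which encodes GM-CSF, had 2 and 0 counts in patch ZsGreen− cells, 0 and 1 in patch ZsGreen+ cells, 2 and 10 in spleen ZsGreen− cells and 211 and 477 in spleen ZsGreen+ cells. Both patch groups lie at or under 3 counts, so no patch fold is given (adjusted p of the difference 0.368).

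The Th17 list of 18 genes had 2 members called by edgeR, Il17re and Il1r1, and 9 by DESeq2, all negative. It had 12 negative and 1 positive at an unadjusted p under 0.05, against 3.81% and 4.67% of all genes. Its median sort effect was 2.28 in the patch and 4.28 in spleen, and its median tissue difference was −1.63, beside 0.01 for all genes. Within experiment 1 the median difference was −1.85 and within experiment 2 −1.32. In the patch 6 members rose and 1 fell, and in spleen 15 rose and 1 fell. Over all genes these shares were 0.284% and 0.153% in the patch, and 4.53% and 4.09% in spleen. The exception in direction was Abcb1a, which encodes an efflux pump and fell in both tissues (log2 −1.11, adjusted p = 0.0482, and −2.16, adjusted p = 0.000371). Tmem176a and Cxcr6 had differences of −2.20 (adjusted p = 0.225) and −1.69 (adjusted p = 0.184), from calls in both tissues. The summed level of the list was 529 and 435 CPM in patch ZsGreen− cells, 929 and 1328 in patch ZsGreen+ cells, 397 and 580 in spleen ZsGreen− cells and 2270 and 5494 in spleen ZsGreen+ cells.

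Markers of γδ T and innate lymphoid cells are given beside the Th17 genes. Their 9 tested members summed to 40.1 and 43.6 CPM in patch ZsGreen− cells, 84.9 and 107 in patch ZsGreen+ cells, 41.4 and 111 in spleen ZsGreen− cells and 262 and 197 in spleen ZsGreen+ cells. With edgeR none was called, DESeq2 called 1, negative, and the median was −0.28. A negative difference at an unadjusted p under 0.05 was seen for 2, beside 3.81% of all genes. Blk, a kinase of B cells and IL-17-producing γδ T cells, had −3.09 (adjusted p = 0.194), while the defining gene Trdc had −0.03 and a lower level in ZsGreen+ cells. The part of such cells in the Th17 values was not tested beyond this.

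Tfh genes had the opposite balance. Cxcr5, by which the cells were sorted as protein, had 767 and 802 CPM in patch ZsGreen− cells, 636 and 633 in patch ZsGreen+ cells, 351 and 390 in spleen ZsGreen− cells and 124 and 105 in spleen ZsGreen+ cells. Spleen ZsGreen+ cells were the lowest in both experiments, and the groups did not overlap. It fell in spleen by 1.69 on the log2 scale (adjusted p = 0.000127), with −0.31 in the patch (adjusted p = 0.687) and a tissue difference of 1.39 ± 0.23 that narrowly missed the threshold (adjusted p = 0.0578). DESeq2 and limma called it, with log2 1.35 and 1.39.

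In the Tfh list of 25 tested genes, none was called by edgeR and 4 by DESeq2, all positive. At an unadjusted p under 0.05, 11 were positive and 0 negative, against 4.67% and 3.81% of all genes. The median tissue difference was 0.88, from a median sort effect of −0.07 in the patch and −0.88 in spleen. In spleen 12 members fell and Batf rose, against 4.09% and 4.53% of all genes. Among members, Il6st, the shared signalling chain of the IL-6 family receptors, had 1.42 (adjusted p = 0.0716) and Id3, an inhibitor of E proteins, 1.12 (adjusted p = 0.178). Bcl6 and Pdcd1 had 0.96 (adjusted p = 0.536) and 0.97 (adjusted p = 0.638). The experiments differed for both, at 0.67 and 1.21 for Bcl6 and 0.17 and 1.71 for Pdcd1. The spleen sort effect of Pdcd1 was −0.05 in experiment 1 and −1.64 in experiment 2. Without spleen ZsGreen− replicate 1, of experiment 1, the tissue differences of Bcl6 and Pdcd1 were 1.44 and 1.52. Icos (0.11), Il21 (0.65) and Maf (0.32) had adjusted p of 0.968, 0.801 and 0.79, with no called sort effect in either tissue. Within experiment 1 the list's median was 0.37 and within experiment 2 it was 1.08.

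Some B cell genes had positive values, as most Tfh genes did. Of 13 B cell markers tested, 4 were positive (Cd22, Mef2b, Pax5 and Ighm) and 1 negative (Blk) at an unadjusted p under 0.05. Over all genes 4.67% were positive and 3.81% negative. None of the 13 was called by edgeR and 2, both positive, by DESeq2. In spleen 3 fell and 1 rose, against 4.09% and 4.53% of all genes. The list summed to 569 and 745 CPM in patch ZsGreen− cells, 467 and 640 in patch ZsGreen+ cells, 263 and 791 in spleen ZsGreen− cells and 208 and 271 in spleen ZsGreen+ cells, most of it from Ighm. The part of B cell RNA in the Tfh values was not tested.

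**Figure D3:**
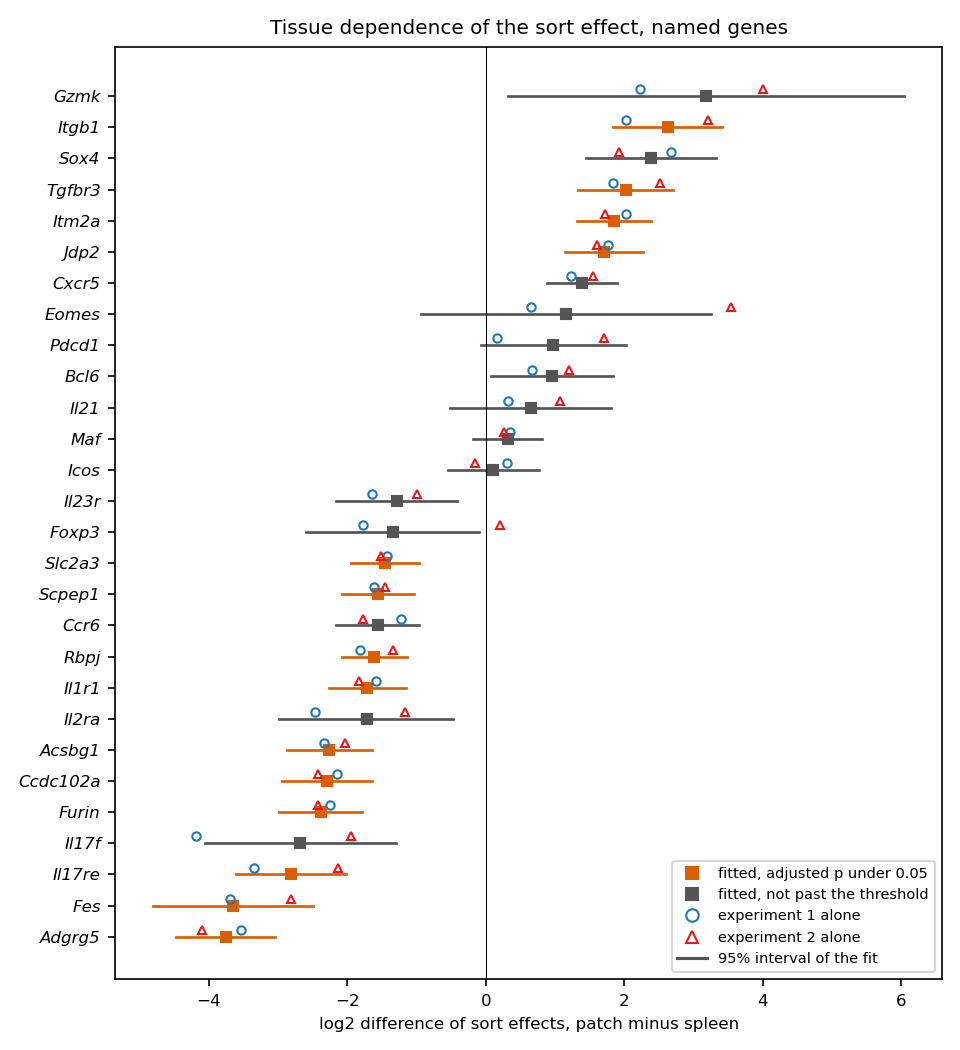
Squares give the fitted tissue difference (log2 patch sort effect minus spleen sort effect) with its 95% interval, and open symbols the value within each experiment, for 28 of the 31 named genes. Called genes in orange run from −3.76 for Adgrg5 to 2.63 for Itgb1; Il17a and Csf2 are not drawn because their intervals exceed the axis.

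Genes of regulatory and other T cell states were read beside these. Foxp3, the regulatory T cell factor, had 4.95 and 2.33 CPM in patch ZsGreen− cells, 0.394 and 0.375 in patch ZsGreen+ cells, 34.2 and 18.1 in spleen ZsGreen− cells and 12.1 and 3.17 in spleen ZsGreen+ cells. It fell in both tissues, by 3.25 in the patch (adjusted p = 0.0118) and 1.90 in spleen (adjusted p = 0.00292) on the log2 scale, and its difference of −1.34 (adjusted p = 0.536) had opposite signs in the 2 experiments. Il2ra, the CD25 chain excluded by the sort, had a difference of −1.72 (adjusted p = 0.374). Its transcript rose in spleen by 2.03 (log2, adjusted p = 0.0088), with 0.30 in the patch (adjusted p = 0.915). Spleen ZsGreen− cells had 4.97 and 3.22 CPM, and spleen ZsGreen+ cells 20.7 and 13.6. The list of 14 regulatory T cell genes had none called by edgeR and 2, both positive, by DESeq2, and a median of 0.46. At an unadjusted p under 0.05, 4 were positive and 2 negative, against 4.67% and 3.81% of all genes. Ikzf2, or Helios, had 2.0 (adjusted p = 0.223), from 0.27 in the patch and a fall of 1.73 in spleen (adjusted p = 0.02).

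Eomes and Gzmk, of cytotoxic T cells, fell in ZsGreen+ cells of both tissues, with differences of 1.16 (adjusted p = 0.83) and 3.18 (adjusted p = 0.519). Gzmk was at 2.39 and 2.66 CPM in patch ZsGreen− cells and 16.3 and 40.3 in spleen ZsGreen− cells, and at most 0.3 in any ZsGreen+ library. Sox4, a factor of early and TGF-β-exposed T cells, had 10.1 and 8.53 CPM in patch ZsGreen− cells, 1.91 and 2.03 in patch ZsGreen+ cells, 46.6 and 28.1 in spleen ZsGreen− cells and 1.33 and 1.71 in spleen ZsGreen+ cells. It fell in both tissues, to like levels, and its difference was 2.39 ± 0.43 (adjusted p = 0.0659). The cytotoxic and Th1 list of 19 genes had none called by edgeR and 1, positive, by DESeq2, and a median of 0.65. At an unadjusted p under 0.05, 4 were positive and 1 negative, against 4.67% and 3.81% of all genes.

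Genes of cell division were the most uniform list in sign. All 23 tested had a negative tissue difference, beside 48.5% of all genes. At an unadjusted p under 0.05, 12 were negative, beside 3.81% of all genes. None passed the adjusted threshold with edgeR or DESeq2. The median was −0.81, at −0.82 within experiment 1 and −0.85 within experiment 2. Of the 23, 20 rose in spleen ZsGreen+ cells, beside 4.53% of all genes. In the patch 0 were called, beside 0.437% of all genes. The median sort effect was 0.53 in the patch and 1.36 in spleen. Bub1, a spindle checkpoint kinase, had 5.93 and 8.09 CPM in patch ZsGreen− cells, 5 and 14.9 in patch ZsGreen+ cells, 8.93 and 10.6 in spleen ZsGreen− cells and 24.7 and 35 in spleen ZsGreen+ cells, a difference of −1.19 (adjusted p = 0.424). Kif11 and Cenpe, mitotic motors, had −0.82 (adjusted p = 0.335) and −1.04 (adjusted p = 0.329), and Pcna, the replication clamp, −0.01. Members of this list rise and fall together in dividing cells and are not independent.

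At an unadjusted p under 0.05, 9 of 18 cholesterol synthesis genes were negative and none positive, against 3.81% and 4.67% of all genes. The median was −0.56, with none called by edgeR and 1 by DESeq2. In spleen 5 rose, beside 4.53% of all genes, and in the patch none was called, beside 0.437%. Sqle, squalene epoxidase, had 26.2 and 37.3 CPM in patch ZsGreen− cells, 22.4 and 38.0 in patch ZsGreen+ cells, 18.7 and 21.0 in spleen ZsGreen− cells and 38.7 and 44.7 in spleen ZsGreen+ cells, a difference of −1.15 (adjusted p = 0.144). Glycolysis genes had a median of 0.05 and 1 member called by edgeR and DESeq2 alike, Slc2a3, and oxidative phosphorylation genes a median of −0.17 with none called by either tool. The interferon-stimulated list had a median of 0.36 over 20 genes, none called by either tool, but −0.16 within experiment 1 and 0.84 within experiment 2. Heat shock and immediate early genes had medians of 0.19 and 0.17, with no member past an unadjusted p of 0.05 in either direction.

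Homing genes split. Of 20 tested, Itgb1 was the 1 member called by edgeR, and DESeq2 called 1 positive and 3 negative. At edgeR's unadjusted p, 3 were positive and 6 negative under 0.05, against 4.67% and 3.81% of all genes. The median was −0.17. Ccr9, the receptor that draws T cells to the small intestine, had 4.08 and 7.42 CPM in patch ZsGreen− cells, 4.33 and 23.8 in patch ZsGreen+ cells, 2.30 and 3.37 in spleen ZsGreen− cells and 19.8 and 50.7 in spleen ZsGreen+ cells. Its spleen rise of 3.43 (log2, adjusted p = 0.0019) was called, the patch value of 0.99 was not (adjusted p = 0.55), and neither was the difference of −2.44 (adjusted p = 0.194).

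**Figure D4:**
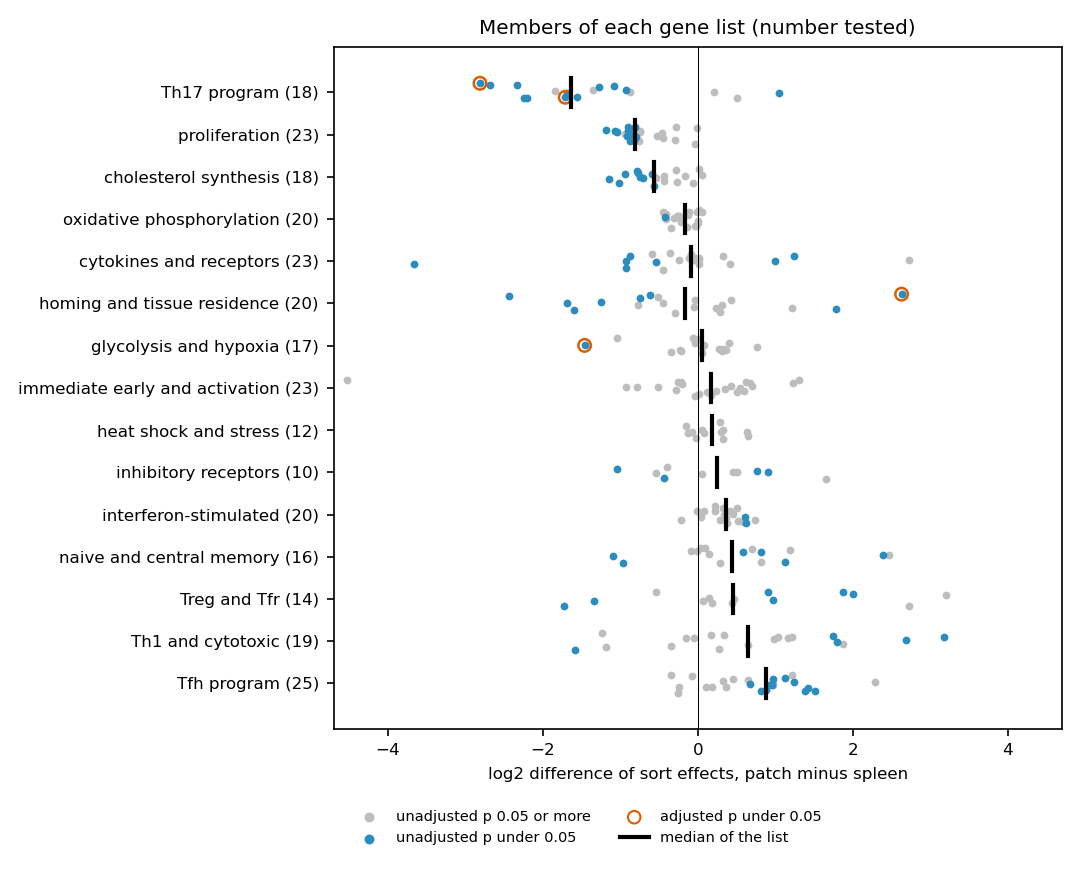
Points are the members of 15 gene lists, placed by their tissue difference (log2, patch minus spleen), with black bars at list medians. The Th17 list lies to the left (median −1.63), all 23 proliferation genes lie at or left of 0 (median −0.81), and the Tfh list lies to the right (median 0.88); 2 genes fall outside the axis and circles mark called members.

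Opposite directions were also looked for with a looser rule, the fold of 1.5 and p under 0.05 that the study set for its signatures, applied to each tissue unadjusted. It gave 15 of the 14418 genes (0.104%), 11 with a positive and 4 with a negative tissue difference. Each had the same sign of that difference in both experiments, which the rule itself favours. Apart from Ccdc102a, none had a called tissue difference (adjusted p from 0.0619 to 0.341), and 3 had a library at 0 counts. The examples that follow were chosen after their values were seen. Nanos1, an RNA-binding translational repressor, had 62.3 and 28.8 CPM in patch ZsGreen− cells, 103 and 39.9 in patch ZsGreen+ cells, 53.7 and 34.8 in spleen ZsGreen− cells and 36.7 and 14.1 in spleen ZsGreen+ cells, a difference of 1.51 (log2, adjusted p = 0.0619). Bcl2l1, which encodes the survival protein Bcl-xL, had 24 and 22, 12.6 and 18.6, 31.2 and 30, and 47.5 and 57.9 CPM in the same order, a difference of −1.35 (adjusted p = 0.0991). Il2, the T cell growth factor, had −3.66 (adjusted p = 0.16), on 24 and 30, 1 and 31, 15 and 23, and 68 and 185 counts, so its patch value came from replicate 1.

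Marking in the patch alone was sought among the 63 genes with a called patch effect. All 63 had the same sign in spleen, and 49 had a smaller absolute change in the patch. The 5 not called in spleen (0.0347% of all genes) were Vdr, Epdr1, Gcnt1, Gimap7 and H4c18, and none had a called tissue difference. Vdr, the vitamin D receptor, had 58.0 and 23.9 CPM in patch ZsGreen− cells, 165 and 64.1 in patch ZsGreen+ cells, 48.9 and 37.6 in spleen ZsGreen− cells and 117 and 48.3 in spleen ZsGreen+ cells. Its effects were 1.46 in the patch (adjusted p = 0.0296) and 0.82 in spleen (adjusted p = 0.0556), a difference of 0.64 (adjusted p = 0.653). Gimap7, a GTPase of lymphocytes, fell by 0.80 in the patch on the log2 scale (adjusted p = 0.0433), with −0.16 in spleen and a difference of −0.64 (adjusted p = 0.357). The value of H4c18 is uncertain, since histone genes have near-identical copies and both patch ZsGreen− libraries had 0 counts.

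With 2 libraries a group, single libraries decided many of the calls. The number of genes with a called tissue difference was 2 without patch ZsGreen− replicate 1, 4 without patch ZsGreen− replicate 2 and 3 without patch ZsGreen+ replicate 1. It was 93 without spleen ZsGreen− replicate 1, 80 without patch ZsGreen+ replicate 2, 23 without spleen ZsGreen+ replicate 1, and 16 and 15 without spleen ZsGreen− replicate 2 and spleen ZsGreen+ replicate 2. Spleen-only genes numbered 63 and opposite genes 12 without spleen ZsGreen− replicate 1, and 45 and 15 without patch ZsGreen+ replicate 2. Called patch effects numbered 7 without patch ZsGreen− replicate 1 and 18 without patch ZsGreen− replicate 2. Called spleen effects numbered 510 without spleen ZsGreen− replicate 2, 591 without spleen ZsGreen+ replicate 1 and 487 without spleen ZsGreen+ replicate 2. A group left with 1 library is assumed to vary like the others. Adgrg5 was called in all 8 of these fits, with adjusted p up to 0.0275 and values from −4.29 to −3.50. Furin, Il17re and Acsbg1 were called in 6, Ccdc102a, Itm2a, Tgfbr3 and Il1r1 in 5, Rbpj in 4, Itgb1 and Scpep1 in 3, and Fes, Slc2a3 and Jdp2 in 2. None of the 14 changed sign in any of the 8.

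**Figure D5:**
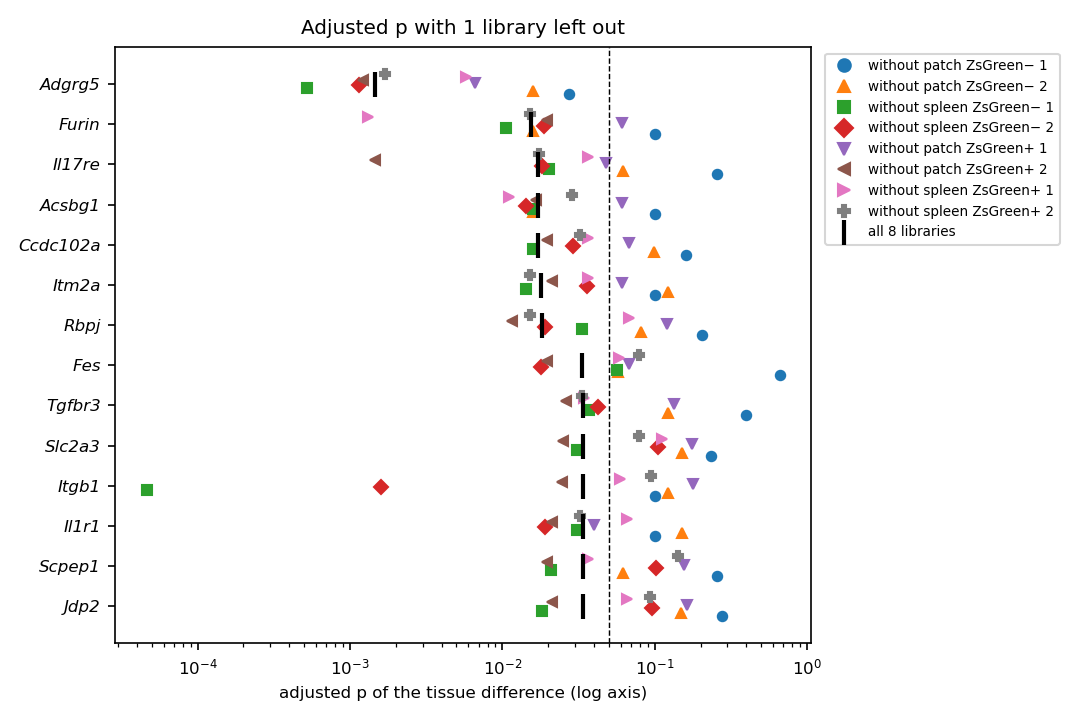
For each of the 14 genes, symbols give the adjusted p of the tissue difference on a log axis with 1 of the 8 libraries left out, and the black bar that with all 8. Adgrg5 stays left of the dashed line at 0.05 throughout, and patch ZsGreen− replicate 1 (blue circles) moves the other 13 genes to its right.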

How the data were processed

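Bulk RNA-seq tables of 8 libraries were used. The values are estimated counts of reads per gene, deposited by the authors as raw counts (20.8% to 31.2% of a library's values lay over 0.01 from a whole number), and they were rounded here. Per the submitters' processing notes, Partek, STAR, DESeq2 and mm39 were involved. Their versions and parameters are not known here. The library notes name poly A enrichment or a non-directional preparation, so a gene and an antisense partner that overlaps it cannot be told apart. Of the exon bases of Furin, 1.29% overlap another gene, of Jdp2 7.68%, of Scpep1 4.58% and of Tgfbr3 4.54% (GENCODE vM21).

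The tables of experiments 1 and 2 held 18114 and 20397 genes. The 16735 in both were used, and those in 1 table held at most 0.0597% and 0.597% of counts. edgeR 4.0.16 in R 4.3.3 tested 14418 after filterByExpr by group (minimum count 10, minimum total 15). TMM factors were 0.656 to 1.24. The quasi-likelihood model had 4 group means and the experiment as block (3 residual degrees of freedom). Libraries of 1 experiment deviated together (r 0.825 to 0.867 over 6 pairs of groups, across genes, which are not independent). Tests are two-sided with Benjamini-Hochberg adjustment over all genes at 0.05. SEs come from the F statistic. CPM are TMM-scaled, and within-experiment log2 values have a prior count of 2. The fit was tested on simulated counts of 14195 genes. It called 20 of 67 true differences of log2 1, 45 of 67 of log2 2 and 59 of 66 of log2 3. It also made 13 false calls, a larger share of its calls than the 0.05 set by the adjustment. Most differences of log2 1 were missed. DESeq2 1.42.0, limma 3.58.1, other filters and scalings, no block and left-out libraries were alternatives.

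The 31 genes of the naming rule, 1 of which is not reported here, are 18 always named and, among called genes with 1 sign in both experiments, those with the largest or best-tested differences by direction, class and list, up to 12 each. The comparison, genes and lists were chosen with earlier results of these data known. Lists are described by counts and medians, without a set test. Of the lists not described in the results, edgeR called no member. DESeq2 called 1 of 5 Th2 genes (negative), 3 of 16 naive (2 positive, 1 negative), 1 of 10 inhibitory receptor (negative), 2 of 23 cytokine (negative) and 1 of 5 sex-linked (positive) genes. Medians were 0.94 for Th2, 0.44 for naive, 0.25 for inhibitory receptor and −0.09 for cytokine genes. At an unadjusted p under 0.05, 8.48% of all genes passed, beside 1 of 9 plasma cell (negative), 2 of 9 myeloid (1 in each direction), 0 of 2 CD8 and NK, 0 of 7 epithelial, 0 of 5 stromal and 1 of 5 sex-linked (positive) genes.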

Additional observations from a re-analysis of the deposited data

Results flagged for a closer look

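For 14 genes the sort effect differed between Peyer's patch and spleen by a test of the difference itself (edgeR, adjusted p under 0.05). On the log2 scale, patch minus spleen, the negative values were −3.76 for Adgrg5, −3.65 for Fes, −2.81 for Il17re, −2.38 for Furin, −2.29 for Ccdc102a, −2.26 for Acsbg1, −1.71 for Il1r1, −1.61 for Rbpj, −1.55 for Scpep1 and −1.46 for Slc2a3. The positive values were 2.63 for Itgb1, 2.02 for Tgfbr3, 1.86 for Itm2a and 1.71 for Jdp2. Groups of 2 libraries are too small for a test of single outlying samples.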

How the results depend on the processing

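Without the replicate block, no tissue difference, patch effect or spleen effect was called in either direction (0 of each with edgeR, with 79 tissue differences at an unadjusted p under 0.05), and the classes and the 1.5-fold opposite rule also came to 0. DESeq2 gave 144 tissue differences (59 positive, 85 negative): 93 in spleen only, 32 of 1 direction and larger in spleen, 12 opposite, and 1 in the patch only, Gcat, with 0 and 4 counts in patch ZsGreen− cells. It called 147 patch effects (81 up, 66 down). With no count filter 47 were called (24 positive, 23 negative), 27 in spleen only, 14 of 1 direction and 6 opposite. DESeq2 size factors, a stricter filter and limma each gave 14, and limma lost Fes and Itgb1 (adjusted p 0.066 and 0.054).

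With 1 library left out, the called tissue differences ranged from 2 to 93 (positive 0 to 71, negative 2 to 59), with spleen-only 1 to 63, same direction 1 to 17, opposite 0 to 15, patch-only 0 to 1 (H2ac18 without spleen ZsGreen− replicate 1, on 0 patch ZsGreen− counts) and the 1.5-fold opposite rule 7 to 40. Patch effects ranged from 7 to 88 (up 7 to 56, down 0 to 32) and spleen effects from 487 to 1357 (up 278 to 780, down 185 to 608). The 0 of positive tissue differences stood beside 484, 802 and 435 at an unadjusted p under 0.05 in the 3 fits concerned, and the 0 of patch decreases beside 342. No gene was opposite and called in both tissues in any setting run. The 1.5-fold opposite rule was chosen after seeing the data.

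Signs turned for genes not called: Il17a without patch ZsGreen− replicate 2 (1.58), Gzmk without patch ZsGreen+ replicate 2 (−0.35), and Icos without the block (−0.01), spleen ZsGreen− replicate 2 (−0.13), patch ZsGreen+ replicate 1 (−0.29) or spleen ZsGreen+ replicate 1 (−0.02). With 1 library left out they ranged from −3.85 to 1.58, −0.35 to 3.94 and −0.29 to 0.39. The cause was not tested. Low counts limit Fes, Il17a, Csf2 and Gzmk.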

Other observations

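Just outside the threshold, 28 genes had an adjusted p from 0.05 to 0.10 for the tissue difference, 14 positive and 14 negative, all with 1 sign in both experiments. They were chosen after their values were seen and are given as a description. Among receptors, Cd27, a costimulatory receptor of memory T cells, had 1.39 (adjusted p = 0.0619), from −0.52 in the patch and −1.90 in spleen on the log2 scale. Tnfrsf25, or DR3, had −1.02 (adjusted p = 0.0991), from 1.08 in the patch and 2.10 in spleen. Slamf1 had −1.11 (adjusted p = 0.0868), from 0.10 and 1.21, and the chemokine receptor Ccr4 −1.28 (adjusted p = 0.0605), from −0.15 and 1.13. Cd22, a lectin best known on B cells, had 2.38 (adjusted p = 0.0595), from −1.77 in the patch and −4.15 in spleen.

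Genes of other roles in that band included Aqp3, a water and glycerol channel, at −1.49 (adjusted p = 0.0746), from 1.83 and 3.32, and Nebl, a nebulin-family actin-binding protein, at −1.25 (adjusted p = 0.0619), from 1.18 and 2.44. Padi4, a peptidylarginine deiminase, had 2.48 (adjusted p = 0.057), from −0.28 and −2.76. Irf8 had 1.56 (adjusted p = 0.0991), from −0.93 and −2.50, and Bmp7 1.46 (adjusted p = 0.0659), from −1.14 and −2.60. In all 10 genes the spleen effect was the larger in size, and of the 10 only Ccr4 had patch and spleen values of different sign. Others of the 28 also differed in sign: Hic1 (−0.08 in the patch and 1.43 in spleen), BC018473 (−0.10 and 1.28) and Rhbdf2 (−0.28 and 1.22). So did Fam43a (0.11 and −1.39), Nanos1 (0.60 and −0.90) and Bcl2l1 (−0.59 and 0.76).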
